A study of Mus musculus with 24 samples.

Results

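The comparison asked whether the transcripts that changed on loss of Prxl2a were the same in brown fat and in liver, or whether the size or direction of the change depended on the tissue. It used 12 of the 24 libraries of the series, which were all libraries from dorsal brown adipose tissue (BAT) and from liver. Each tissue gave 3 libraries from wildtype mice (WT) and 3 from mice with a Prxl2a knockout (KO). All animals were females kept on a normal diet to 12 weeks of age, and the blood was washed out with PBS before dissection. The protocol gives 3 mice per genotype, so BAT and liver may come from the same animals, and p-values measure the spread between these libraries. The sources used here name no knockout allele, strain or hour of dissection. For each gene the measured quantity was the KO minus WT change in BAT less the KO minus WT change in liver, on the log2 scale. A positive difference therefore means a change that was more upward in BAT. The difference could be tested for 13672 of the 19015 genes in the table, with edgeR's quasi-likelihood test and Benjamini-Hochberg adjustment over all of them, and a gene is said to be called where the adjusted p was under 0.05. Levels are given as CPM, counts scaled to a common library size over the 12 libraries, and since they are not corrected for gene length each gene is compared with itself only.

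Prxl2a encodes a redox-active protein of the peroxiredoxin-like 2 family. Brown adipocytes burn fatty acids in mitochondria uncoupled by UCP1, whereas hepatocytes make most plasma proteins and are the main site of cholesterol synthesis and of very low density lipoprotein output. Cholesterol is built from acetyl-CoA through mevalonate, and the genes of this route are driven together by the transcription factor SREBP2, which is held in the endoplasmic reticulum (ER) when sterol is plentiful. The ER also folds secreted proteins, with chaperones that are raised by the unfolded protein response.

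The libraries matched their tissue labels. Ucp1 ran from 1955 to 4071 CPM in BAT and from 0 to 0.0765 CPM in liver, and albumin (Alb) ran from 137000 to 177500 CPM in liver and from 0 to 0.908 CPM in BAT. Library totals were 12327448 to 12948147 counts in BAT and 17034042 to 18257785 counts in liver. BAT WT replicate 1 stood apart. The mean log2(CPM + 0.5) of 18 skeletal muscle genes was 5.97 in it and -0.11 to 2.20 in the other BAT libraries, and that of 23 macrophage genes was 2.82 in it and 1.81 to 2.06 in the others. BAT KO replicate 3 was highest among BAT libraries for 30 cytosolic and mitochondrial chaperones, at 6.79 against 5.93 to 6.22, and BAT KO replicate 2 was highest for 32 interferon response genes, at 4.41 against 2.87 to 3.45. In bulk tissue, fewer cells of a type and less RNA per cell cannot be told apart.

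Prxl2a itself (gene 70564, GRCm38.p6 chr14:40993735-41013833) was low in every KO library of both tissues. In BAT it was at 349, 370 and 370 CPM in WT and at 16.6, 19.0 and 13.9 CPM in KO. In liver it was at 121, 104 and 94.6 CPM in WT and at 2.27, 1.22 and 2.83 CPM in KO. The genotypes did not overlap in either tissue, and BAT WT held more Prxl2a transcript than liver WT. It fell by 4.46 on the log2 scale in BAT (SE 0.18, edgeR adjusted p = 8.96e-08) and by 5.66 in liver (SE 0.21, edgeR adjusted p = 4.00e-08). The difference between these changes was 1.20 (SE 0.27) and was not called (edgeR adjusted p = 0.0893).

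The knockout change differed between the tissues for 55 genes, which is 0.402% of those tested. The difference was positive for 33 genes (0.241%) and negative for 22 (0.161%), and 1590 genes had an unadjusted p under 0.05. Within BAT alone 206 genes rose in KO (1.51%) and 159 fell (1.16%), and within liver alone 101 rose (0.739%) and 109 fell (0.797%). Among the 55 genes, 39 had changes of opposite sign in BAT and liver. Picking genes by the difference favours opposite signs, so this count says little. Only 3 genes had both changes called in opposite directions. Of the 55, the own change was called in BAT only for 23, in liver only for 27, and in both for 5. Most genes called in 1 tissue only had no called difference. It was called for 23 of 336 genes called in BAT only and for 27 of 181 called in liver only. Both shares were above the 0.402% over all genes tested. That is no separate result, because the same fit to the same libraries gave the calls within each tissue and for the difference. With 1 library left out, the sign of the difference was kept by all 55 genes in each of the 12 fits. This says little, since the genes were picked by their calls on these same libraries. The call was kept in all 12 fits by 11 genes. The number of calls moved widely: it was 6 positive and 7 negative without liver WT replicate 2, 7 and 7 without BAT WT replicate 3, and 48 and 49 without BAT KO replicate 1. DESeq2 called 110 positive and 124 negative. On log2(TPM + 1) with limma the difference gave 26 and 34, and the balance within the tissues moved towards falls, with 138 higher and 346 lower in BAT and 64 higher and 138 lower in liver.

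**Figure D1:**
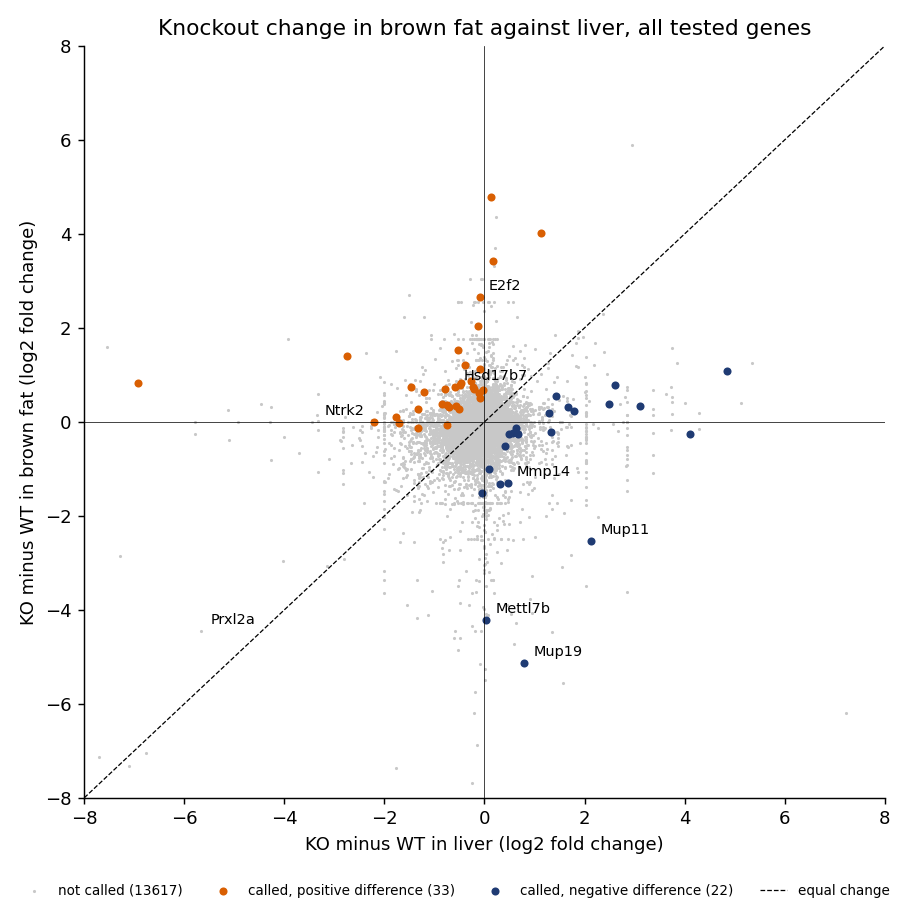
Knockout change in brown fat (vertical axis) against liver (horizontal axis), both as log2 fold change of KO against WT, with 1 point per tested gene and a dashed line where the changes are equal. The 33 genes called for a positive difference lie above the line and the 22 called for a negative difference lie below it, while Prxl2a lies far down in both tissues and was not called for a difference.

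Of 25 genes of cholesterol synthesis and uptake, 5 fell in liver KO, where 0.797% of all genes tested fell. None fell in BAT KO, where the share over all genes was 1.16%, so a list this short can hold none. The difference was positive for 22 of 25 members, with a median of 0.65 against 0.01 over all genes tested, and it was called for 3 of them, all positive, among them Hmgcs1 and Hsd17b7. The median change over the list was -0.56 in liver, where none rose, and 0.17 in BAT, where 1 member rose. It moved with single libraries, to -0.37 in liver without liver KO replicate 2 and to 0.01 in BAT without BAT KO replicate 2. The list median of the difference ran from 0.49 to 0.88 over all alternative settings and left-out libraries, so no library turned its direction.

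Hmgcs1 and Hsd17b7 encode enzymes at the start and near the end of the route. Hmgcs1 (chr13:119690351-119708260) encodes the cytosolic HMG-CoA synthase, and Hsd17b7 (chr1:169949535-169969242) encodes a 3-ketosteroid reductase of the later sterol steps. Their promoters are shown because both genes are of 1 pathway and moved apart between the tissues. Each run is a promoter window of 250 bases on GRCm38.p6, read 5′ to 3′ on the gene's strand. The windows are chr13:119690101-119690350 (plus strand) for Hmgcs1 and chr1:169969206-169969455 (minus strand) for Hsd17b7. The Hmgcs1 window ends just before the gene span given above. The 3′ end of the Hsd17b7 window lies inside the gene span, which ends at base 169969242, and the last ATTGG marked for Hsd17b7 is in this overlap. Capitals mark matches on either strand to TCACNCCA, a form of the sterol regulatory element, and to CCAAT, the motif of NF-Y, which reads ATTGG on the other strand. The motifs were chosen with the results known, and they do not overlap each other here.
Hmgcs1: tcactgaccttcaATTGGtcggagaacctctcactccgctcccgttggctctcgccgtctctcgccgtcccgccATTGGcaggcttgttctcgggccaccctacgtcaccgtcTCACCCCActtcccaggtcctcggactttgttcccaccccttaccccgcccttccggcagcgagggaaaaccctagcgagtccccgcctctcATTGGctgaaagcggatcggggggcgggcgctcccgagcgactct
Hsd17b7: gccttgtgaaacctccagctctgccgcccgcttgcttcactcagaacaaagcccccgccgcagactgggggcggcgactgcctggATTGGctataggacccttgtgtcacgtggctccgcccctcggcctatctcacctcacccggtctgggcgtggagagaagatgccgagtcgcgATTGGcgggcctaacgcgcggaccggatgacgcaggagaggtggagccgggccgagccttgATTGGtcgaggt
TCACNCCA was found 1 time in the Hmgcs1 window and 0 times in the Hsd17b7 window, and 3.67% of 32851 promoter windows of this length hold it. CCAAT was found 3 times in each, and 2.79% of the windows hold it 3 times or more. These matches describe the letters in the windows only.

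Hsd17b7 moved in opposite directions in the 2 tissues. In BAT it was at 5.05, 5.71 and 6.06 CPM in WT and at 8.54, 10.3 and 9.27 CPM in KO. In liver it was at 118, 121 and 124 CPM in WT and at 82.8, 73.9 and 82.8 CPM in KO. Every KO library was above WT in BAT and below WT in liver. It rose by 0.74 in BAT (SE 0.10, edgeR adjusted p = 0.00453), fell by 0.60 in liver (SE 0.09, edgeR adjusted p = 0.00336), and the difference was 1.34 (SE 0.13, edgeR adjusted p = 0.00140). This call was kept without each library in turn, with differences from 1.25 to 1.39, and in all 13 other settings.

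Hmgcs1 was at 147, 157 and 160 CPM in BAT WT and at 187, 185 and 191 CPM in BAT KO. In liver its WT libraries were at 392, 574 and 365 CPM and its KO libraries at 177, 143 and 207 CPM. All 3 liver KO libraries lay below liver WT, and all 3 BAT KO libraries lay above BAT WT by a narrow margin. It fell by 1.34 in liver (SE 0.17, edgeR adjusted p = 0.00110), its BAT change of 0.28 (SE 0.16) was not called (edgeR adjusted p = 0.373), and the difference was 1.62 (SE 0.23, edgeR adjusted p = 0.0143). The difference was called in all 12 fits with a library left out and in all 13 other settings.

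Other genes of the route were chosen for mention after their values were seen. Msmo1, a sterol C4-methyl oxidase, fell by 1.16 in liver (SE 0.18, edgeR adjusted p = 0.00548) and changed by 0.11 in BAT (SE 0.19, edgeR adjusted p = 0.801), and its difference of 1.27 was just short of the threshold (edgeR adjusted p = 0.0583). Stard4, a cytosolic sterol carrier, fell by 0.58 in liver (SE 0.11, edgeR adjusted p = 0.0234). Srebf2, which encodes SREBP2, was level, with changes of -0.01 in BAT and 0.04 in liver (SE 0.10 each), neither of them called.

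Of 22 ER chaperones and genes of the unfolded protein response, 7 rose in liver KO, where 0.739% of all genes tested rose. None was called in BAT KO, where 1.51% of all genes rose and 1.16% fell, so a list this short can hold none. In liver the direction was opposite to that of the cholesterol genes. The difference was negative for all but 2 of 22 members, with a median of -0.56, but it was called for none of them by edgeR. The median change was 0.55 in liver and 0.08 in BAT. Dnajb11, an ER cochaperone, was at 35.7, 37.5 and 38.2 CPM in BAT WT, 34.0, 41.3 and 37.0 in BAT KO, 83.2, 100 and 124 in liver WT and 161, 208 and 154 in liver KO. It rose by 0.77 in liver (SE 0.14, edgeR adjusted p = 0.0229), and its difference of -0.76 (SE 0.21) was not called (edgeR adjusted p = 0.162). Herpud1, which acts in the disposal of misfolded ER proteins, had a difference of -1.05 (SE 0.27, edgeR adjusted p = 0.143).

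The ER members with called rises in liver, named after their values were seen, included Hspa5, which encodes the main ER chaperone BiP. Liver WT libraries were at 766, 1060 and 1226 CPM for Hspa5 and liver KO libraries at 1705, 2247 and 1478 CPM, a rise of 0.83 (SE 0.18, edgeR adjusted p = 0.0385). Creld2 rose by 1.71 in liver (SE 0.33, edgeR adjusted p = 0.0240) and changed by 0.14 in BAT (SE 0.39). Sdf2l1 rose by 1.52, Hyou1 by 1.12, Manf by 1.09 and Syvn1 by 1.07 in liver, and liver WT replicate 1 was the lowest library for each of them. The list median of the difference ran from -0.71 to -0.38 over all settings and left-out libraries.

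**Figure D2:**
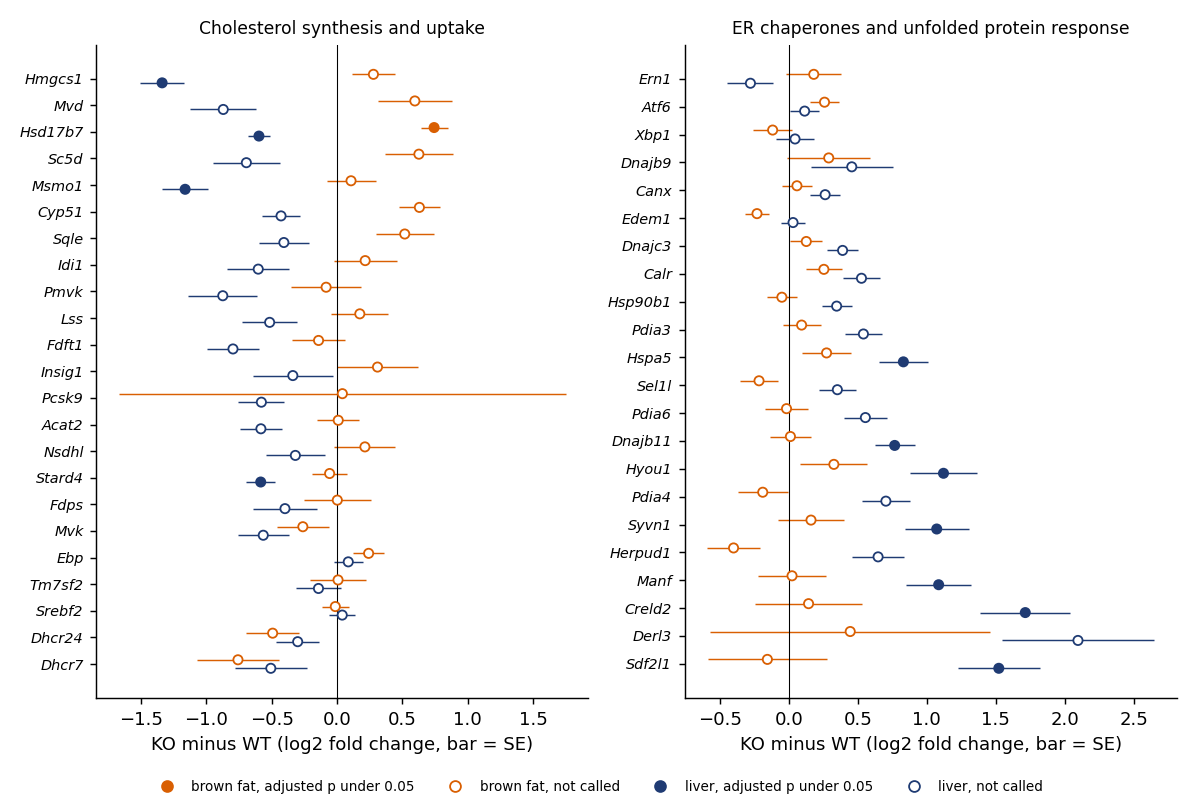
Knockout change in brown fat and in liver for members of 2 gene lists, as log2 fold change with its SE, ordered by the difference between the tissues, with filled points where the adjusted p was under 0.05. In the cholesterol panel the liver points lie left of the BAT points for 20 of the 23 genes shown, and in the ER panel they lie right of them for all but 2 of 22.

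Fatty acid and triglyceride synthesis had a median difference of 0.34 over 24 members and none called. This median was 0.17 without liver KO replicate 2 and 0.82 without liver KO replicate 1. The median change was -0.41 in liver, from -0.66 to -0.22 with 1 library left out, and 0.01 in BAT. Elovl5, an elongase of polyunsaturated fatty acids, was at 72.4, 78.5 and 80.8 CPM in BAT WT and 85.2, 109 and 116 in BAT KO, and at 575, 496 and 426 CPM in liver WT and 367, 350 and 304 in liver KO. The genotypes were separated upward in BAT and downward in liver, and the difference of 0.97 (SE 0.19) lay just outside the threshold (edgeR adjusted p = 0.0534). Mlxipl, the carbohydrate-responsive factor ChREBP, rose by 0.96 in BAT (SE 0.20, edgeR adjusted p = 0.0292) and changed by 0.10 in liver (SE 0.20), with a difference of 0.86 that was not called (edgeR adjusted p = 0.263).

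Pparg (chr6:115360879-115490404), the master regulator of adipocytes, was the only member of the adipocyte list called for the difference. It was at 282, 308 and 305 CPM in BAT WT and 386, 365 and 331 CPM in BAT KO, and at 12.3, 13.4 and 10.9 CPM in liver WT and 8.83, 8.87 and 7.89 CPM in liver KO. The genotypes were again separated upward in BAT and downward in liver. It fell by 0.52 in liver (SE 0.11, edgeR adjusted p = 0.0384), changed by 0.27 in BAT (SE 0.09, edgeR adjusted p = 0.136), and the difference was 0.79 (SE 0.14, edgeR adjusted p = 0.0374). With 1 library left out the difference was 0.71 to 0.87 and was called in 2 of 12 fits, and it was called in 7 of 13 other settings. Cd36, also of this list, fell by 1.45 in liver (SE 0.25, edgeR adjusted p = 0.0139). Its difference of 1.51 was not called (edgeR adjusted p = 0.0995). None of 19 thermogenic genes was called in BAT, in liver or for the difference. The difference was positive for 13 of them with a median of 0.41, or 0.09 without BAT KO replicate 3. Many of them had no or few reads in liver, so their liver change was hardly measured. Of the 6 with at least 5 CPM in both tissues the difference was positive for 3, with a median of 0.19. No oxidative phosphorylation subunit was called in either tissue or for the difference (median 0.04). The fitted change was positive for 74 of 76 subunits in BAT (median 0.16) and 70 of 76 in liver (median 0.12), and over the other settings these medians went as low as 0.03 and 0.02.

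Nfe2l2 and Slc25a32 rose in BAT and did not rise in liver. Nfe2l2 (chr2:75675513-75704663) encodes NRF2, the transcription factor of the antioxidant response. It was at 109, 88.6 and 89.7 CPM in BAT WT and 167, 143 and 156 in BAT KO, against 105, 95.1 and 91.0 CPM in liver WT and 92.0, 83.1 and 78.0 in liver KO. The rise in BAT was 0.70 (SE 0.11, edgeR adjusted p = 0.00698), the liver change was -0.20 (SE 0.11, edgeR adjusted p = 0.420), and the difference was 0.90 (SE 0.15, edgeR adjusted p = 0.0277), called in 5 of 12 fits with a library left out. Among the 37 genes of the glutathione and NRF2 target list, which holds Nfe2l2, no other member was called for the difference, and the list medians were -0.01 in BAT and 0.00 in liver. Slc25a32 (chr15:39091230-39112720), the mitochondrial folate and FAD carrier, was at 69.0, 67.8 and 63.9 CPM in BAT WT and 144, 169 and 126 in BAT KO, and at 60.1, 45.8 and 65.1 CPM in liver WT and 57.0, 54.7 and 49.0 in liver KO. It rose by 1.13 in BAT (SE 0.13, edgeR adjusted p = 0.00136), changed by -0.09 in liver (SE 0.13), and differed by 1.22 (SE 0.19, edgeR adjusted p = 0.0214), called in 8 of 12 fits with a library left out. It was the only member of 27 folate and one-carbon genes called for the difference. In BAT 2 members of this list rose, where 1.51% of all genes tested rose.

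**Figure D3:**
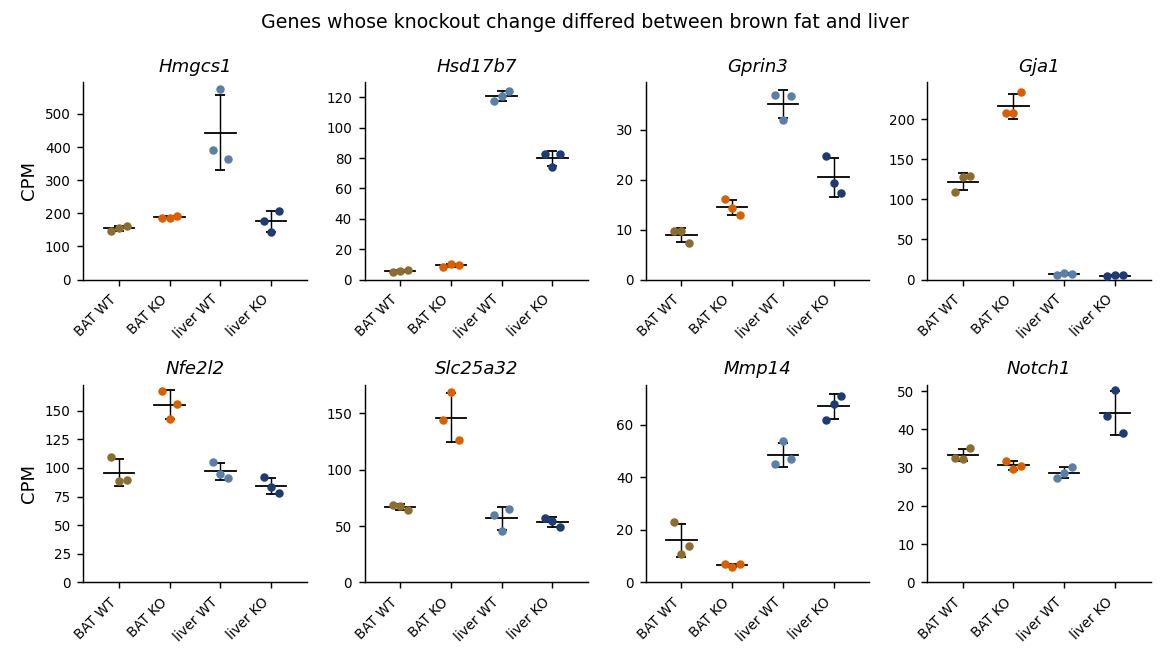
Level in each library (points, CPM on a linear axis from 0), with the mean (line) and SD (bar) of the 3 libraries per group, for 8 genes called for a difference between the tissues. Hsd17b7 and Gprin3 move up in BAT KO and down in liver KO, Nfe2l2 and Slc25a32 move in BAT, and the liver KO libraries of Notch1 lie between 39.1 and 50.4 CPM, all above liver WT.

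Of 32 growth factor, kinase and cAMP signal genes the difference was called for Pde4d and Ntrk2, and Gprin3 was called outside that list. Gprin3 (chr6:59344500-59426306), a G-protein regulated inducer of neurite outgrowth, was at 9.75, 9.69 and 7.38 CPM in BAT WT and 16.0, 14.4 and 13.0 in BAT KO, and at 36.9, 32.0 and 36.6 CPM in liver WT and 24.7, 19.3 and 17.3 in liver KO. Both own changes were called, a rise of 0.70 in BAT (SE 0.15, edgeR adjusted p = 0.0336) and a fall of 0.78 in liver (SE 0.14, edgeR adjusted p = 0.0209), with a difference of 1.48 (SE 0.21, edgeR adjusted p = 0.0143) that was called in all 12 fits with a library left out. Pde4d, a cAMP phosphodiesterase, was at 113, 118 and 89.8 CPM in BAT WT and 128, 147 and 226 in BAT KO, and at 8.86, 7.84 and 7.01 CPM in liver WT and 3.67, 3.82 and 2.76 in liver KO. Every liver KO library was under every liver WT library, a fall of 1.21 (SE 0.25, edgeR adjusted p = 0.0386), and the difference was 1.85 (SE 0.31, edgeR adjusted p = 0.0286), or 1.56 without BAT KO replicate 3, its highest library. Ntrk2, the receptor of the neurotrophin BDNF, overlapped in BAT (139 to 171 CPM in WT, 130 to 170 in KO) and was at 21.6, 13.0 and 7.56 CPM in liver WT and 3.67, 2.45 and 2.99 in liver KO. Its difference of 2.20 (SE 0.41, edgeR adjusted p = 0.0424) came with a liver fall of 2.21 (SE 0.33, edgeR adjusted p = 0.00442) and a BAT change of 0.00. With 1 library left out the call was kept in 5 of 12 fits for Pde4d and in 2 of 12 for Ntrk2.

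Among further positive differences the called own change was a rise in BAT for Gja1, Dixdc1 and Gramd4 and a fall in liver for Lamc3. Gja1 (chr10:56377300-56390419), the gap junction protein connexin 43, was at 109, 128 and 129 CPM in BAT WT and 207, 207 and 234 in BAT KO, and at 3.99 to 8.18 CPM in the liver libraries. It rose by 0.83 in BAT (SE 0.12, edgeR adjusted p = 0.00602), and the difference was 1.30 (SE 0.20, edgeR adjusted p = 0.0216). Dixdc1, a positive regulator of Wnt signalling, rose from 14.2, 11.2 and 12.4 CPM to 30.1, 50.9 and 28.4 CPM in BAT (log2 change 1.53, SE 0.21, edgeR adjusted p = 0.00453), while its liver libraries went from 19.5, 19.9 and 22.4 CPM to 17.6, 11.9 and 13.1 CPM without a call. Its difference was 2.07 (SE 0.30, edgeR adjusted p = 0.0143). Gramd4, whose product carries a GRAM domain, differed by 1.27 (SE 0.20, edgeR adjusted p = 0.0222) with a called rise of 0.78 in BAT. Lamc3, a laminin chain of basement membranes, fell by 1.71 in liver (SE 0.18, edgeR adjusted p = 0.000329), from 8.78, 12.0 and 11.8 CPM to 3.44, 3.75 and 2.76 CPM, and overlapped in BAT at 11.7 to 16.1 CPM in WT and 13.6 to 15.2 CPM in KO, for a difference of 1.68 (SE 0.24, edgeR adjusted p = 0.0143). Of 12 fits with a library left out, the call was kept in 8 for Gja1, 10 for Dixdc1, 6 for Gramd4 and 11 for Lamc3.

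Negative differences among genes with a plain symbol and at least 5 CPM in both tissues included Mmp14 and Notch1. Mmp14 (chr14:54431598-54442456), a membrane-bound collagenase, was at 23.1, 11.0 and 14.0 CPM in BAT WT and 6.90, 5.74 and 6.86 in BAT KO, and at 45.2, 53.8 and 46.9 CPM in liver WT and 61.8, 68.1 and 71.1 in liver KO. The genotypes were separated downward in BAT and upward in liver, with a called fall of 1.30 in BAT (SE 0.22, edgeR adjusted p = 0.0119) and a difference of -1.77 (SE 0.29, edgeR adjusted p = 0.0277). Its highest BAT library was BAT WT replicate 1, the library rich in muscle and macrophage transcripts, and without it the difference was -1.43 (edgeR adjusted p = 0.0149). Over all 12 fits with a library left out the difference was -1.99 to -1.43 and was called in 3, with a highest edgeR adjusted p of 0.0750. Notch1, the receptor of Notch signalling, was at 32.6, 32.2 and 35.1 CPM in BAT WT and 31.8, 29.5 and 30.5 in BAT KO, and at 27.3, 28.7 and 30.2 CPM in liver WT and 43.5, 50.4 and 39.1 in liver KO. It rose by 0.63 in liver (SE 0.10, edgeR adjusted p = 0.00559), and the difference was -0.75 (SE 0.13, edgeR adjusted p = 0.0374). The calcium-binding protein gene Efhd2 rose by 0.66 in liver and differed by -0.93, Abhd6, a monoacylglycerol lipase, rose by 0.57 in liver and differed by -0.81, and the LIM-only gene Lmo4 rose by 0.49 in liver and differed by -0.74. Nedd4l, a ubiquitin ligase of sodium channels, instead fell by 0.52 in BAT (SE 0.12, edgeR adjusted p = 0.0466) and differed by -0.92. The edgeR adjusted p of these differences was 0.0321 for Efhd2, 0.0289 for Abhd6, 0.0414 for Lmo4 and 0.0428 for Nedd4l. These calls rested on the full set of libraries, since with 1 left out the call was kept in 2 of 12 fits for Notch1, 3 for Efhd2, 2 for Abhd6, 1 for Lmo4 and 2 for Nedd4l.

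Of the 55 called genes, 6 reached a mean of 5 CPM in BAT only, all with a positive difference. Another 12 did so in liver only, of which 10 had a negative difference, and 4 did so in neither tissue. Genes tested at these levels numbered 1161 for BAT only, 1285 for liver only and 2819 for neither. E2f2, a transcription factor of cell cycle entry, was at 1.45, 1.27 and 1.50 CPM in BAT WT and 11.0, 8.67 and 6.92 in BAT KO, and stayed between 0.791 and 1.42 CPM in liver. It rose by 2.65 in BAT (SE 0.25, edgeR adjusted p = 0.000243) with a difference of 2.75 (SE 0.39, edgeR adjusted p = 0.0143). Of 24 cell cycle genes no other was called for the difference, which was positive for 4 of 24 with a median of -0.45. This median was -0.27 without liver WT replicate 1. Only 6 of the 24 reached 5 CPM in both tissues, with a median of -0.33. Ripor2, a regulator of small GTPases, rose in BAT from 6.79, 4.84 and 3.92 CPM to 18.8, 23.6 and 21.5 CPM (difference 2.16, SE 0.36, edgeR adjusted p = 0.0277). Cables1, a CDK5 and ABL1 substrate, rose in BAT from 22.5, 20.9 and 22.1 CPM to 39.6, 59.4 and 53.5 CPM (difference 1.61, SE 0.30, edgeR adjusted p = 0.0428). For Crispld2, a secreted protein gene, and Cpe, the prohormone-processing carboxypeptidase E, the called change was a fall in liver at levels under 4 CPM. Crispld2 fell there by 1.77 and differed by 1.88 (SE 0.33, edgeR adjusted p = 0.0300), and Cpe fell by 1.32 and differed by 1.20 (SE 0.22, edgeR adjusted p = 0.0428). With 1 library left out, the call was kept in 11 of 12 fits for E2f2, but in 3 for Ripor2, 1 for Cables1, 3 for Crispld2 and none for Cpe.

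Some differences in genes of liver rested on very few reads in BAT. Mettl7b, a methyltransferase gene at 678 to 847 CPM in liver, had raw counts of 13, 7 and 7 in BAT WT and 0, 0 and 1 in BAT KO, where Alb had 10, 0 and 7 in WT and 15, 6 and 5 in KO. Its difference was called (edgeR adjusted p = 0.0221), with a liver change of 0.04, and its fitted size cannot be read as a fold. Creb3l3, a liver-enriched ER-bound transcription factor, had 0 counts in each BAT WT library and 4, 3 and 4 in BAT KO, so that its call rests on 11 reads, and the call was lost in all 12 fits with a library left out. Mup11 and Mup19 are major urinary protein genes with called negative differences, and Mup19 had raw counts of 0, 3 and 0 in BAT KO against 50, 27 and 47 in BAT WT. In liver Mup11 rose from 19.6, 13.4 and 13.5 CPM to 63.9, 50.6 and 89.5 CPM (log2 change 2.13, SE 0.26, edgeR adjusted p = 0.000909), and in BAT it fell from raw counts of 29, 26 and 26 to 0, 9 and 4. Genes of this family are near-identical copies, so how reads were shared among them is uncertain. Slc6a13, a GABA and taurine transporter, had raw BAT counts of 32, 15 and 26 in WT and 7, 9 and 12 in KO and differed by -1.61 (SE 0.31, edgeR adjusted p = 0.0493). Carmil1, a capping protein regulator, overlapped in BAT at 2.99 to 4.76 CPM and rose in liver from 8.62, 6.44 and 8.43 CPM to 17.7, 18.8 and 22.2 CPM (difference -1.54, SE 0.26, edgeR adjusted p = 0.0286). With 1 library left out, the call was kept in 1 of 12 fits for Slc6a13 and 2 for Carmil1, and in 12 for Mup11, 10 for Mettl7b and 9 for Mup19. Gene models without a plain symbol made up 10 of the 55 called genes, and 9 of the 10 had a negative difference.

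A few genes were called in the same direction in both tissues with no called difference, and these are named as changed alike. With 3 libraries per group, a missing call does not show that the changes were equal. Of 29 genes called in both, 26 moved in the same direction and 3 in opposite directions, which were Gprin3, Hsd17b7 and Mup11. The difference was not called for 24 of the 26, of which 12 carry a plain symbol: 4 rose (Pik3c3, Wdfy1, P4ha2 and Dynlt1b) and 8 fell (Prxl2a, Ifi208, Lrmda, Col1a1, Tmem267, Pck2, St3gal6 and Nr1d2). Pik3c3, the catalytic subunit of the class III phosphoinositide 3-kinase of autophagy and endosomes, was at 34.6, 32.2 and 33.2 CPM in BAT WT and 62.5, 64.8 and 56.2 in BAT KO, and at 78.1, 97.6 and 66.9 CPM in liver WT and 232, 246 and 287 in liver KO. It rose by 0.88 in BAT (SE 0.13) and by 1.66 in liver (SE 0.13), and the difference of -0.78 was not called (SE 0.18, edgeR adjusted p = 0.102). Wdfy1, whose product binds the lipid that Pik3c3 makes, rose by 1.22 in BAT (SE 0.11) and by 0.65 in liver (SE 0.11), the reverse order of size, with a difference of 0.58 that was not called (edgeR adjusted p = 0.146).

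The shared falls included genes of metabolism and matrix. Pck2, the mitochondrial PEP carboxykinase, went from 28.0, 30.3 and 34.4 CPM to 18.0, 13.9 and 14.8 CPM in BAT and from 7.99, 9.44 and 7.01 CPM to 3.60, 3.06 and 3.83 CPM in liver, falls of 0.99 (SE 0.14) and 1.22 (SE 0.16). Col1a1, a chain of type I collagen, went from 85.2, 46.5 and 65.3 CPM to 27.1, 25.7 and 38.2 CPM in BAT and from 10.3, 17.0 and 12.1 CPM to 4.38, 6.58 and 4.82 CPM in liver, falls of 1.11 (SE 0.23) and 1.32 (SE 0.28). All 3 KO libraries were below WT in each case, and the difference was 0.24 for Pck2 and 0.21 for Col1a1. Over 30 collagen and matrix genes the medians were -0.63 in BAT and -0.56 in liver, with no called difference. The list held 3 called falls in BAT and 2 in liver, where 1.16% and 0.797% of all genes tested fell. BAT WT replicate 1 was also highest for this list, at 5.48 against 4.38 to 4.85 for the mean log2(CPM + 0.5), and without it the BAT median was -0.32; its part in the BAT falls was not tested. Lrmda was detected in all 3 liver WT libraries, with raw counts of 21, 22 and 8, and in no liver KO library, at least 5.52-fold lower against a floor of 3 counts per library. In BAT it fell by 2.86 (SE 0.40). Its difference was not called (edgeR adjusted p = 0.254), and with no reads in liver KO the size of that difference cannot be read.

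**Figure D4:**
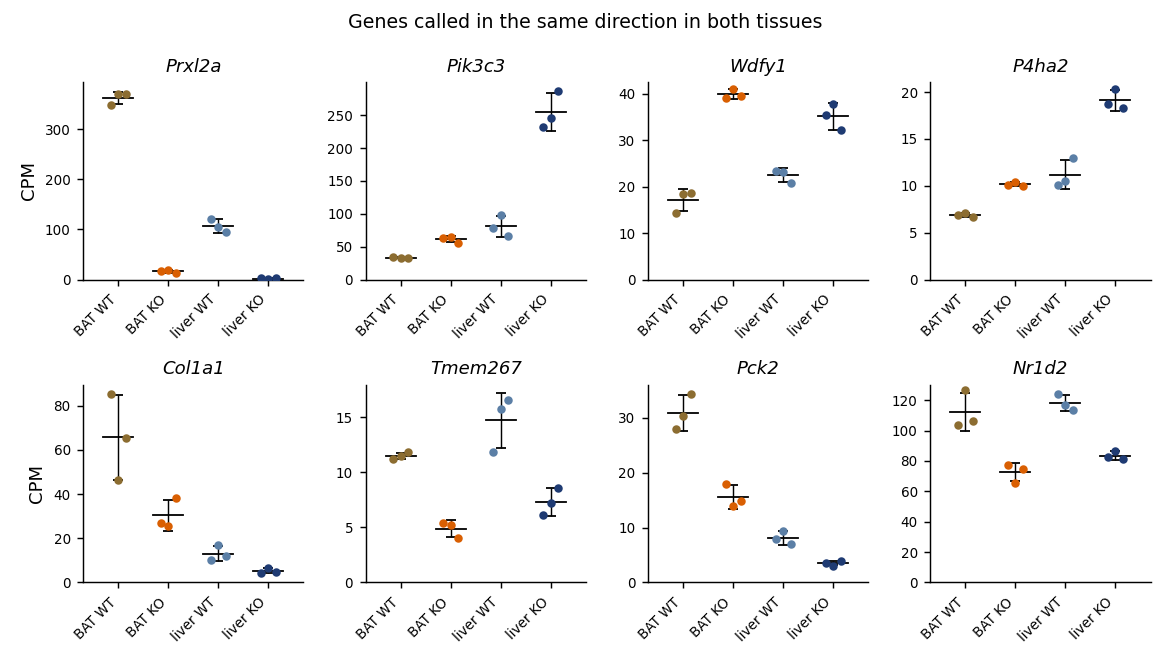
Level in each library (points, CPM on a linear axis from 0), with the mean (line) and SD (bar) of the 3 libraries per group, for 8 of the genes called in the same direction in both tissues. Prxl2a falls to at most 19.0 CPM in BAT KO and 2.83 CPM in liver KO. The genotypes of all 8 genes do not overlap within a tissue, which is no separate result, since they were chosen for their calls in both.

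Tmem267 and Hmgcs1 lie close together on chromosome 13, near Nnt, the mitochondrial transhydrogenase that makes NADPH. Tmem267 (chr13:119488086-119610459) fell by 1.23 in BAT (SE 0.17, edgeR adjusted p = 0.00453) and by 1.01 in liver (SE 0.17, edgeR adjusted p = 0.0106). Nnt (chr13:119335527-119409257) was at 5.69, 3.29 and 2.71 CPM in BAT WT and 6.23, 5.68 and 4.64 in BAT KO, and at 67.2, 57.9 and 65.8 CPM in liver WT and 208, 200 and 191 in liver KO. It rose by 1.65 in liver (SE 0.17, edgeR adjusted p = 0.000217), changed by 0.50 in BAT (SE 0.22, edgeR adjusted p = 0.231), and the difference of -1.15 (SE 0.27) was not called (edgeR adjusted p = 0.109). Prxl2b, another gene of the peroxiredoxin-like 2 family, rose by 0.78 in liver (SE 0.14, edgeR adjusted p = 0.0188) and changed by -0.21 in BAT (SE 0.14), with a difference of -0.995 just short of the threshold (edgeR adjusted p = 0.0568).

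Further lists held called changes but no called difference. For reference, 1.51% of all genes tested rose and 1.16% fell in BAT, and 0.739% rose and 0.797% fell in liver. Of 20 core clock genes, 3 rose and 4 fell in BAT and 1 fell in liver, and none was called for the difference, whose median was -0.06. Nr1d2, the clock repressor REV-ERB beta, fell by 0.63 in BAT (SE 0.09, edgeR adjusted p = 0.00663) and by 0.50 in liver (SE 0.09, edgeR adjusted p = 0.0234), with a difference of -0.13 (edgeR adjusted p = 0.778). Of 30 cytosolic and mitochondrial chaperones 4 rose in BAT and none was called in liver, and the change was positive for 28 of 30 in BAT (median 0.30) and for 25 of 30 in liver (median 0.20). BAT KO replicate 3 was highest for this list, and without it the BAT median was 0.13. Hspa8, the constitutive HSC70, was at 969, 1042 and 1112 CPM in BAT WT and 1826, 2055 and 2730 in BAT KO, and its difference of 0.76 was not called (SE 0.21, edgeR adjusted p = 0.175). Hk2, the hexokinase of fat and muscle, was at 480, 367 and 417 CPM in BAT WT and 959, 1090 and 777 in BAT KO, a rise of 1.16 (SE 0.17, edgeR adjusted p = 0.00610), and under 3.1 CPM in liver, with a difference of 1.51 that was not called (edgeR adjusted p = 0.0794). Rab4a, a small GTPase of endosome recycling, rose by 1.61 in BAT (SE 0.17, edgeR adjusted p = 0.000713) against 0.58 in liver (SE 0.13, edgeR adjusted p = 0.0543), and its difference of 1.03 was not called (edgeR adjusted p = 0.0687).

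In some lists single libraries set the median difference, and no member was called for the difference. Immediate early genes had a median difference of 0.52 over 26 members, which was 0.13 without liver WT replicate 3. Nr4a1, an immediate early nuclear receptor, was at 146, 45.7 and 27.1 CPM in BAT WT, 42.8, 50.5 and 510 in BAT KO, 13.4, 5.60 and 49.2 in liver WT and 2.74, 5.51 and 4.90 in liver KO, so that 1 library per group held the high value in 3 of 4 groups. Its difference was 3.83 (SE 1.49, edgeR adjusted p = 0.337), or 1.72 without BAT KO replicate 3. Interferon response genes had a median difference of 0.46 over 32 members and of -0.27 without BAT KO replicate 2, in which Ifit1 was at 62.6 CPM against 5.13 to 9.46 CPM in the other BAT libraries. Macrophage genes had a median difference of -0.49 over 23 members and of 0.01 without BAT WT replicate 1, and skeletal muscle genes had one of -2.87 over 18 members and of 2.43 without that library.

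**Figure D5:**
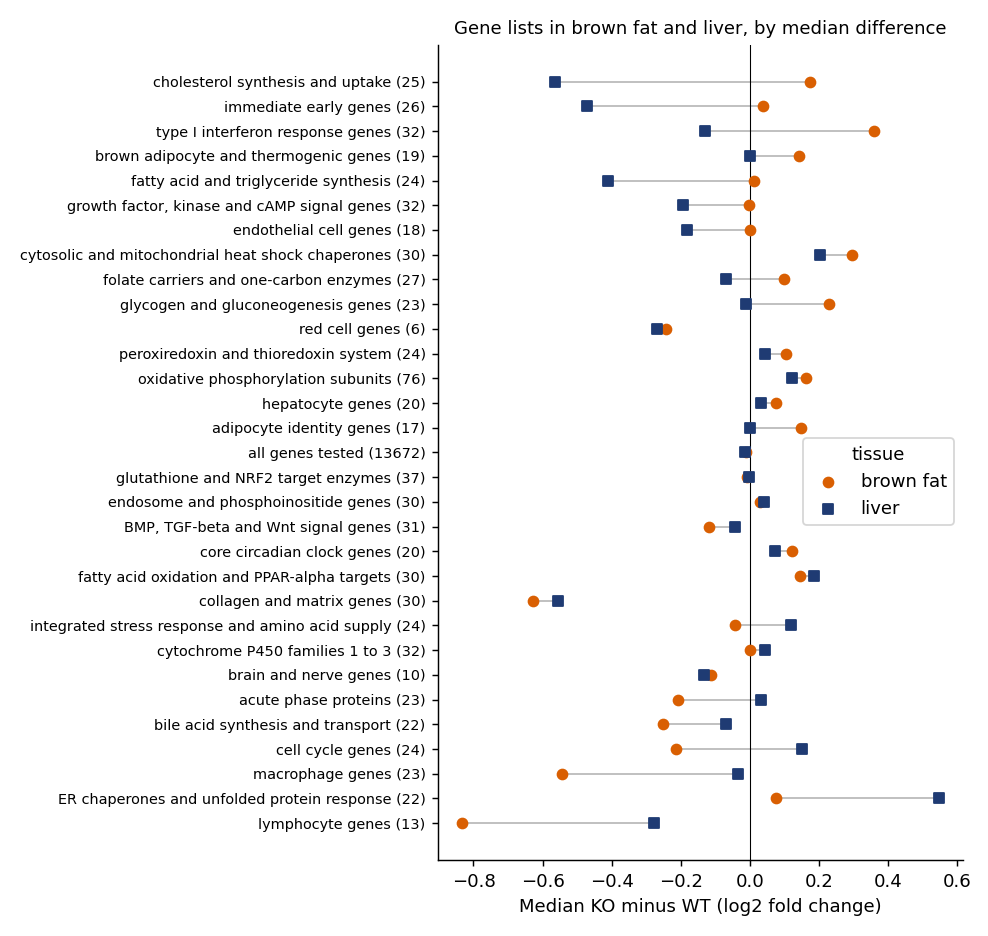
Median knockout change over the tested members of each gene list (number in brackets) in brown fat (circles) and in liver (squares), as log2 fold change, ordered by the median difference, with all 13672 genes for reference and without the skeletal muscle list. Cholesterol genes lie at 0.17 in BAT and -0.56 in liver, and ER chaperones lie at 0.08 and 0.55.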

How the data were processed

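RNA was sequenced from BAT and liver of WT and KO mice, with 3 libraries per group, made with an mRNA-Seq kit per the labels' protocols. The authors deposited 1 table of 19015 genes. Per the file headers it holds raw expected counts for every gene and library, and TPM values that the authors computed library by library. The submitters' processing notes name the build GRCm38.p6 and the tools RSEM 1.3.1, Bowtie2 2.3.4.3 and DESeq2 1.4.5. No source used here gives the annotation or strand setting, so overlapping genes and near-identical copies cannot be fully told apart. Another 48 per-sample columns were not used.

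Expected counts were rounded and the 12 libraries fitted together in edgeR 4.0.16 (R 4.3.3), with TMM factors, filterByExpr and 1 coefficient per group. The quasi-likelihood F-test gave the KO change in each tissue and the difference of the changes, with p-values adjusted by Benjamini-Hochberg over 13672 genes. SEs were taken from the F statistic. TMM factors were 1.32 to 1.41 in BAT and 0.701 to 0.786 in liver. Replicates correlated across genes with a Pearson r of 0.972 to 0.990 on log2 CPM, and none differed by so little that it could be a second copy of another. The test was tested on simulated data.

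The gene lists and the rule for named genes were chosen with earlier results of these data known. Named genes were Prxl2a; genes called for the difference, with a plain symbol and no overlap of genotypes in at least 1 tissue, up to 10 per direction with a mean of at least 5 CPM in both tissues and up to 5 per tissue and direction with that level in 1 tissue; genes called in opposite directions; up to 10 changed alike; up to 3 called members of each list, or else up to 2 with the smallest p; and marker genes. Genes named outside this rule were chosen after their values were seen. The results of a few genes that the rule or a list holds are not reported here. Promoters came from RefSeq (GRCm38.p6); of the genes tested, 99.8% matched the RefSeq gene table.

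Alternatives were RLE factors, TMM within each tissue, no filter, filters of 1 CPM in 3 libraries and of 5 CPM in both tissues, a robust prior, DESeq2 1.42.0, limma-voom (limma 3.58.1), all 24 libraries in 1 fit, replicate blocks, limma-trend on TPM with a pseudocount of 1 or 0.1 (log2 scale, mean TPM at or above 1), and leaving out each library.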

Additional observations from a re-analysis of the deposited data

Results flagged for a closer look

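For the 29 named genes below, the edgeR test of the difference itself gave an adjusted p under 0.05 with all 12 libraries and no replicate block. With 1 library left out, 4 of them were called in all 12 fits and 17 in at most 5. The values are BAT change minus liver change on the log2 scale. Among cholesterol genes the difference was 1.62 for Hmgcs1 and 1.34 for Hsd17b7. Among other genes with at least 5 CPM in both tissues it was 2.20 for Ntrk2, 2.07 for Dixdc1, 1.85 for Pde4d, 1.68 for Lamc3, 1.48 for Gprin3, 1.30 for Gja1 and 1.27 for Gramd4. For regulators and carriers named from the lists it was 0.79 for Pparg, 1.22 for Slc25a32 and 0.90 for Nfe2l2. Negative differences in genes of both tissues were -1.77 for Mmp14, -0.93 for Efhd2, -0.92 for Nedd4l, -0.81 for Abhd6, -0.75 for Notch1 and -0.74 for Lmo4. Genes that reached 5 CPM in BAT only differed by 2.75 for E2f2, 2.16 for Ripor2, 1.88 for Crispld2, 1.61 for Cables1 and 1.20 for Cpe. Genes that reached 5 CPM in liver only had fitted differences of 4.66 for Creb3l3, -5.92 for Mup19, -4.68 for Mup11, -4.26 for Mettl7b, -1.61 for Slc6a13 and -1.54 for Carmil1. The first 5 of these liver genes had at most 50 raw counts in any BAT library. For Creb3l3, Mup19 and Mettl7b a BAT group held 3 reads or fewer in all, so the fitted value depends on the count added before logs and is neither a fold nor a bound.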

How the results depend on the processing

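Counts are given as positive and negative for the difference and as higher and lower for each tissue, and were 33 and 22, 206 and 159 in BAT, and 101 and 109 in liver. DESeq2 called 110 and 124, 385 and 368, and 219 and 231. With all 24 libraries in 1 fit, which tests more genes, the calls were 8 and 5, 100 and 73, and 51 and 47. Limma-voom called 13 and 10 for the difference. On log2(TPM + 1) the calls were 26 and 34, 138 and 346, and 64 and 138, and on log2(TPM + 0.1) they were 25 and 23, 102 and 264, and 54 and 133. With genes of at least 5 CPM in both tissues only, BAT gave 171 and 196. RLE factors, TMM within each tissue, the other filters and the robust prior stayed within 1.5 times of every count. Where a setting moved a count the cause was not tested.

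Leaving out 1 library gave 6 to 48 positive and 7 to 49 negative differences, 66 to 231 higher and 43 to 264 lower in BAT, and 51 to 99 higher and 31 to 111 lower in liver. Without BAT WT replicate 1 the differences were 21 and 14, without BAT KO replicate 2 they were 15 and 10, and without BAT KO replicate 3 they were 15 and 9. No call of a named gene changed sign under any setting or left-out library, which says little for genes picked by their calls on these libraries.

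The labels do not say whether the same number in BAT and liver marks the same mouse, and the main fit did not pair them. Over 8407 genes the correlation of deviations for equal numbers was -0.04, 0.03 and -0.03 in WT and 0.22, 0.02 and 0.06 in KO. For unequal numbers it ran from -0.063 to 0.073 in WT and from -0.125 to 0.073 in KO. These values cannot settle the pairing, since libraries of the same mouse need not deviate alike in different tissues. With the replicate block as an additive number the difference was called for 13 and 12 genes. With a replicate block per mouse, taken as genotype and number, it was called for 17 and 14. Of the 55 genes called in the main fit, 24 were also called with the block per mouse. Of the 29 named genes 14 were called with the block per mouse, and those not called were Mmp14, Pparg, Ntrk2, Notch1, Efhd2, Abhd6, Lmo4, Nedd4l, Ripor2, Crispld2, Cables1, Cpe, Mettl7b, Creb3l3 and Slc6a13. Genes under about 1 CPM in a tissue were measured there by few reads.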
